A study of Astragalus chrysochlorus with 2 samples.

Results

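ABC transporters are membrane proteins that use ATP to move lipids, hormones, metabolites, metals and toxic compounds across membranes, and plants sort them into families by their sequence. Members of the A family are linked to lipid transport. Those of the C family load glutathione conjugates, anthocyanins and other anions into the vacuole, and those of the G family export wax, cutin and hormones across the plasma membrane. Selenium enters plant cells as selenate through sulfate transporters, and ABC transporters of plants are known for their part in detoxification.

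Described here are 8 of the 82566 unigenes (assembled transcripts) of callus of Astragalus chrysochlorus, a legume that accumulates selenium. They carry the names of A family (2 unigenes), C family (2) and G family (4) ABC transporters. The unigenes were chosen by name and by the values of the same comparison, since the authors' annotation table used for the names holds only unigenes that passed their thresholds. All 8 were found in the deposited table. The names are matches to proteins of other plants, mostly soybean (Glycine max) and Medicago truncatula, and not proof of function. Callus, an undifferentiated tissue, was kept as a long-term culture on MS medium with the auxin 2,4-D at 0.5 mg/L in both groups. The Control group (1 library) had no selenate. The Se-treated group (1 library) came from 21-day-old callus that spent 3 weeks on medium that also held 5 mg/L sodium selenate. For the control, the sample labels give neither callus age nor time on the medium. Cultures were grown in triplicate, and whether these were pooled for RNA is not given in the sources used here. Each condition therefore has 1 library and no replicate check, and every difference below is between 2 libraries. No marker of callus was fixed, so the tissue label was not checked against the data.

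The libraries were of nearly equal depth, the control with 16.73 and the Se-treated one with 16.70 when fragments are counted in units of 1000000. Levels are FPKM, in which fragments are divided by the length of the unigene and by the library's total. Their median over all unigenes was 2.40 without selenate and 2.36 with it. Differences are log2 ratios of Se-treated over control FPKM. All intervals given are of the exact type at 95%. Those of levels, log2 ratios and shares of fragments treat fragments as independent and reflect counting error alone. Those of shares of unigenes or contigs treat unigenes or contigs as independent and hold no counting error of fragments. Sequenced fragments are not independent molecules, so the intervals can be too narrow. With 1 library per condition, they hold no variation between cultures or libraries. In bulk callus, fewer cells of a type and less RNA per cell cannot be told apart.

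Of the 8 unigenes, 4 were higher in Se-treated callus (both C family members and 2 of the G family) and 4 were lower (both A family members and the other 2 of the G family). Unigenes of the annotation table had to reach a log2 ratio of 2 in either direction with a false discovery rate (FDR) no higher than 0.001, which 1.59% of all unigenes passed as higher and 1.1% as lower. Since these thresholds chose the members, nothing is read from that count, nor from intervals of their levels that do not overlap between the libraries. How often such intervals lie apart over all unigenes was not computed. The member closest to the threshold was a C family unigene with 2.03, and an A family unigene with -2.04 was nearest on the lower side. Among the other contigs of the members' clusters (groups of similar assembled sequences), those just outside were CL3458.Contig1 with 1.81 and CL3003.Contig1 with -1.67. The median log2 ratio of the 8 members was -0.0028, since equal numbers lay on either side, against -0.09 over all unigenes. Together they took 552 control and 1909 Se-treated fragments, or 33.0 and 114 per 1000000 fragments. The C family unigene CL7881.Contig1 alone held 53.8% and 65.6% of these.

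**Figure D1:**
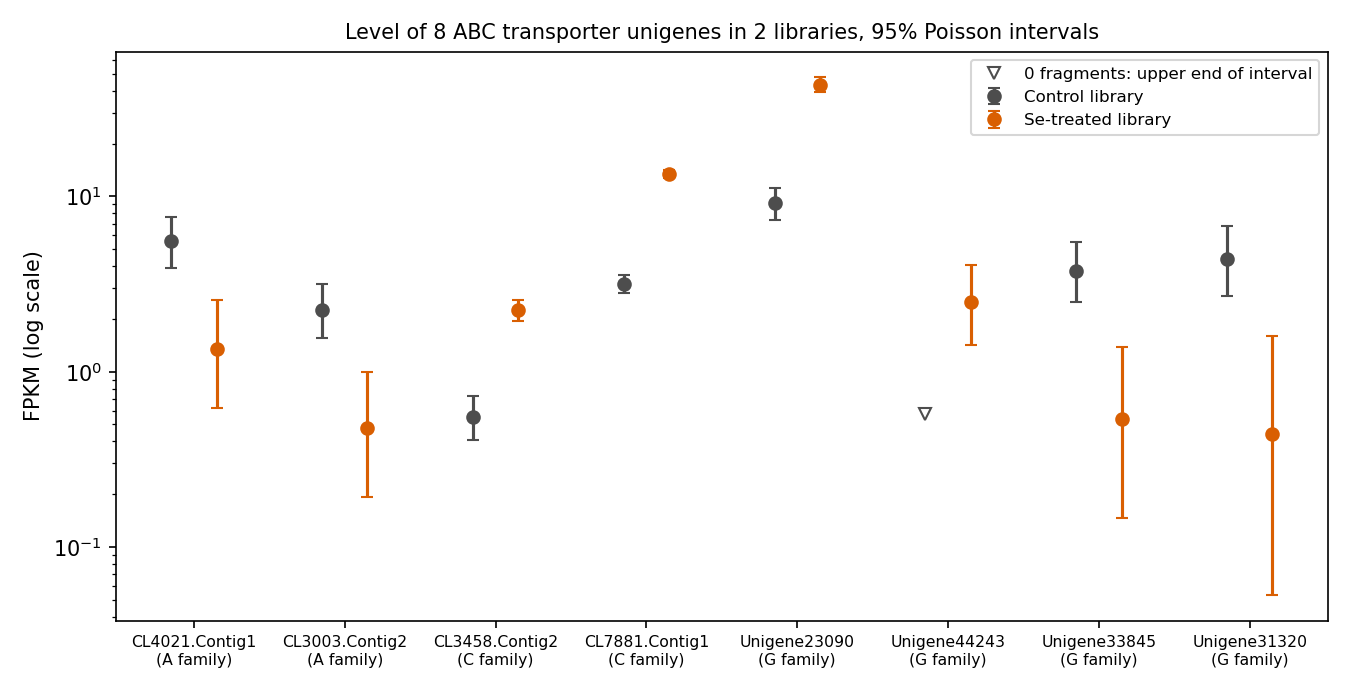
FPKM on a log scale (vertical axis) of the 8 ABC transporter unigenes (horizontal axis) in the control (grey) and Se-treated (orange) library, with exact 95% Poisson intervals as bars and an open triangle at the upper end of the interval where no fragment was found. Both A family unigenes lie lower in the Se-treated library, both C family unigenes lie higher, and the G family is split, with Unigene23090 at 9.12 and 43.4 FPKM as the highest in both libraries.

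The A family unigenes were both sparse and both lower in Se-treated callus. CL4021.Contig1_All, matched to an A family member 2-like protein of strawberry (Fragaria vesca) and 399 nt long, had 37 control and 9 Se-treated fragments. Its level was 5.54 FPKM (3.90 to 7.64) without selenate and 1.35 FPKM (0.618 to 2.56) with it, and the log2 ratio was -2.04 (-3.27 to -0.96). CL3003.Contig2_All, matched to an A family member 7-like protein of soybean and 872 nt long, had 33 and 7 fragments. Its level was 2.26 FPKM (1.56 to 3.18) and 0.481 FPKM (0.193 to 0.990), a log2 ratio of -2.23 (-3.66 to -1.03). For both, the intervals of the level did not overlap between the libraries, which the choice of members on these counts favoured. In rank, CL4021.Contig1 went from percentile 74.9 of all control levels to percentile 34.5 of the Se-treated ones, and CL3003.Contig2 from 47.8 to 18.8.

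The other contigs of these A family clusters were not picked by the rule, and contigs of a cluster can share reads. CL4021 has 1 more contig, CL4021.Contig2 of 312 nt, with 15 control and 10 Se-treated fragments. Its log2 ratio of -0.58 had an interval from -1.90 to 0.67, so a difference was not detectable at this depth. Both contigs together had 52 and 19 fragments, and their joint log2 ratio was -1.45 (-2.29 to -0.67). In CL3003 the longest contig went the other way. CL3003.Contig3, of 3143 nt, had 434 and 540 fragments (8.25 and 10.3 FPKM), which gave a log2 ratio of 0.32 (0.13 to 0.50). CL3003.Contig1, of 1526 nt, had 35 and 11 fragments and a ratio of -1.67 (-2.79 to -0.66) on the log2 scale. The 3 contigs summed to 502 and 558 fragments, a log2 ratio of 0.15 whose interval (-0.02 to 0.33) held 0. Thus the 2 shorter contigs of CL3003 were lower in Se-treated callus and the longest was higher. The member's share of the cluster's fragments was 6.57% (Clopper-Pearson interval 4.57 to 9.11) without selenate and 1.25% (0.506 to 2.57) with it.

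The C family unigenes were the longest of the members and both were higher in Se-treated callus. CL7881.Contig1_All, of 5594 nt, was matched to a C family member 5-like protein of soybean. In Arabidopsis, ABCC5 is known as a vacuolar transporter of phytate, the storage form of phosphate in seeds. The unigene had 297 control and 1253 Se-treated fragments, the most of any member. Its level was 3.17 FPKM (2.82 to 3.56) and 13.4 FPKM (12.7 to 14.2), and its log2 ratio 2.08 (1.90 to 2.27). CL3458.Contig2_All, of 5336 nt, was matched to a C family protein of Medicago that carries no member number. It had 49 and 200 fragments, or 0.549 FPKM (0.406 to 0.726) and 2.24 FPKM (1.94 to 2.58), and its log2 ratio was 2.03 (1.57 to 2.51). The intervals of the level lay apart between the libraries for both, which the choice of members on these counts favoured. The ratios of the 2 C family unigenes had overlapping intervals, while the level of CL7881.Contig1 was 5.78 times that of CL3458.Contig2 without selenate and 5.98 times with it.

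The contigs beside these 2 unigenes differed. In CL3458 the other contig, CL3458.Contig1 of 5178 nt, was also higher in Se-treated callus, with 108 and 379 fragments and a log2 ratio of 1.81 (1.50 to 2.14). The member held 31.2% (24.1 to 39.1) of the cluster's control fragments and 34.5% (30.7 to 38.6) of its Se-treated ones. The cluster as a whole had 157 and 579 fragments, which gave a log2 ratio of 1.89 (1.63 to 2.15). In CL7881 the most abundant contig of the control was another one. CL7881.Contig4, of 4594 nt, had 787 and 748 fragments, or 10.2 FPKM (9.54 to 10.98) and 9.75 FPKM (9.06 to 10.5), and its log2 ratio was -0.07 (-0.22 to 0.08). CL7881.Contig2, of 5071 nt, had 37 and 29 fragments and a log2 ratio of -0.35 (-1.10 to 0.39). CL7881.Contig3, of 2185 nt, had 1 and 13 fragments, and its ratio of 3.70 on the log2 scale had an interval from 0.97 to 9.11. The cluster as a whole had 1122 and 2043 fragments and a log2 ratio of 0.87 (0.76 to 0.97). Without the member these were 825 and 790, and the ratio was -0.06 (-0.20 to 0.08). Contigs of this cluster can share reads, and the split of reads between them was not tested. As counted, the higher level of CL7881 in Se-treated callus lay in CL7881.Contig1. Its share of the cluster's fragments was 26.5% (23.9 to 29.2) without selenate and 61.3% (59.2 to 63.5) with it, while that of CL7881.Contig4 was 70.1% (67.4 to 72.8) and 36.6% (34.5 to 38.7).

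**Figure D2:**
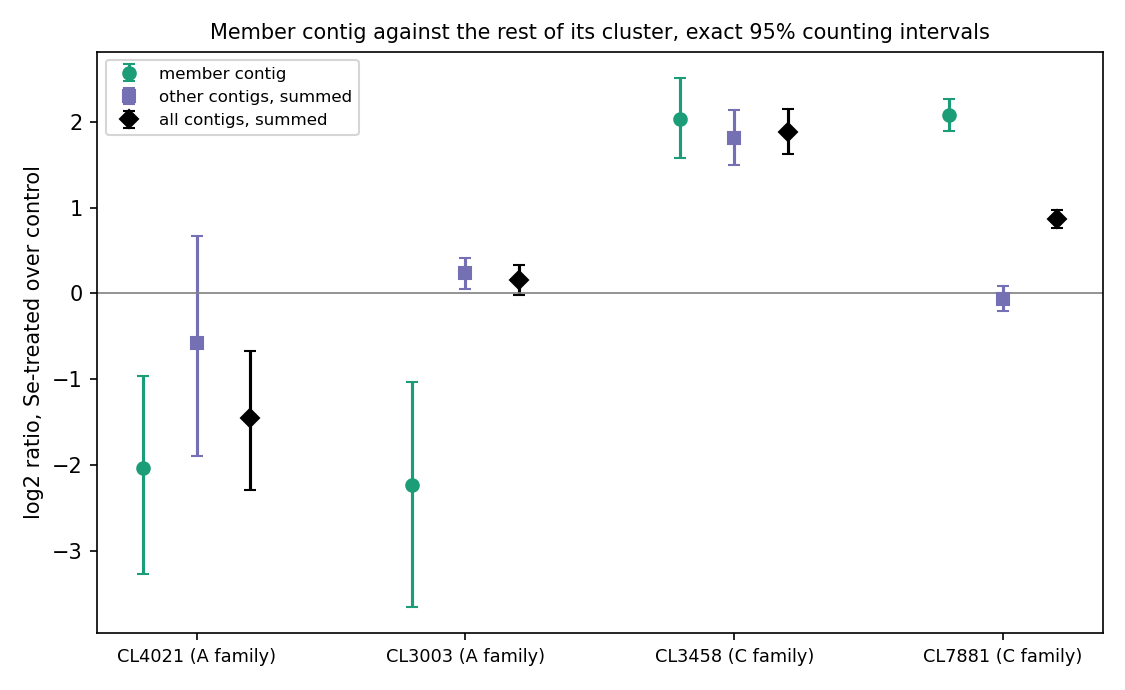
Log2 ratio of Se-treated over control (vertical axis) for the member contig (circles), the other contigs summed (squares) and all contigs summed (diamonds) of the 4 clusters that hold a member, with exact 95% counting intervals. In CL3458 all 3 values lie between 1.81 and 2.03, whereas in CL7881 the other contigs lie at -0.06 and in CL3003 at 0.23, away from their member.

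**Figure D3:**
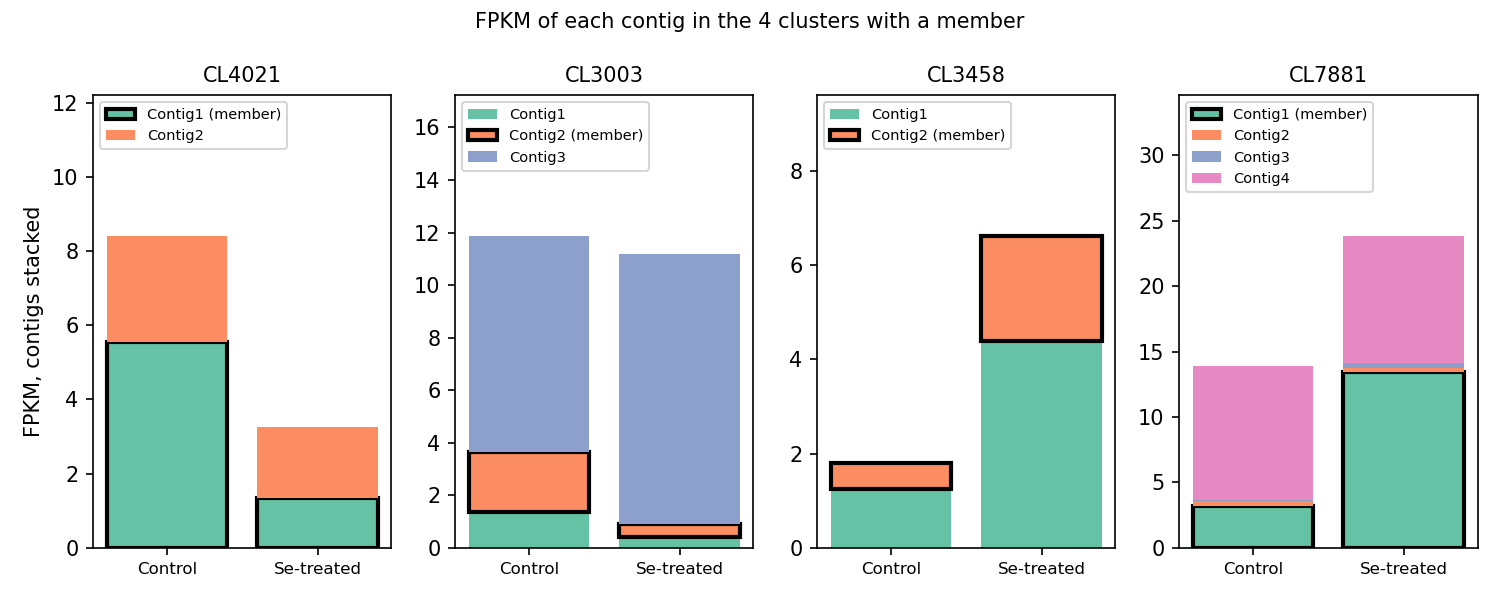
FPKM of each contig (vertical axis, stacked) in the control and Se-treated library for the 4 clusters, with the member outlined in black and a separate scale in each panel. In CL7881 the member goes from 3.17 to 13.4 FPKM beside a CL7881.Contig4 of 10.2 and 9.75 FPKM, and in CL3003 the longest contig makes up most of the stack in both libraries.

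Over the whole table, 702 contigs that passed the same thresholds lay in a cluster whose other contigs had fragments in both libraries. By sign alone, the other contigs, summed, had the same direction as the contig in 79.3% of these (exact binomial interval 76.2 to 82.3). In 13.4% they also reached a log2 ratio of 2. Several of the 702 contigs can lie in the same cluster and share reads, so the interval can be too narrow. Of the 4 members in clusters, the rest of CL4021 and CL3458 had the sign of the member, and the rest of CL3003 and CL7881 did not. For CL4021 (-0.58, -1.90 to 0.67) and CL7881 (-0.06, -0.20 to 0.08) the interval of the rest held 0, so their direction is not settled.

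The G family had the most abundant member and also the sparsest. Unigene23090_All, of 577 nt, was matched to a G family protein of Medicago with no member number. The unigene had 88 control and 418 Se-treated fragments, or 9.12 FPKM (7.31 to 11.2) and 43.4 FPKM (39.3 to 47.7). Its log2 ratio was 2.25 (1.92 to 2.60), a 4.76-fold higher level. It moved from percentile 82.9 of all unigenes to 95.8. Unigene44243_All, of 384 nt, was matched to a G family member 28-like protein of soybean. Its namesake in Arabidopsis is known for its role in the growth of pollen tubes. Not a single control fragment was counted, against 16 Se-treated ones, or 2.49 FPKM (1.43 to 4.05). The upper end of the control's interval was 0.574 FPKM. The exact interval of its log2 ratio has no upper end and starts at 1.95. With a floor of 3 fragments in the control (0.467 FPKM at this length) the ratio is 5.34-fold, which takes the 16 fragments as exact and is not a 95% limit.

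The other 2 G family members were lower in Se-treated callus. Unigene33845_All, of 443 nt and matched to a G family member 5-like protein of soybean, had 28 control and 4 Se-treated fragments. Its level was 3.78 FPKM (2.51 to 5.46) and 0.541 FPKM (0.147 to 1.38), and its log2 ratio was -2.80 (-4.78 to -1.29). Unigene31320_All, of 271 nt and matched to a Medicago G family protein other than that of Unigene23090, had 20 and 2 fragments. Its level was 4.41 FPKM (2.69 to 6.81) and 0.442 FPKM (0.0535 to 1.596), and its log2 ratio of -3.32 (-6.46 to -1.28) rests on these 2 fragments. For both, the intervals of the level did not overlap between the libraries, which the choice of members on these counts favoured.

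Members of the G family that stand outside the clusters carry a number, and the direction of unigenes moved with that number. Among the 500 unigenes on either side of Unigene44243, 97.6% were higher in the Se-treated library (exact binomial interval 96.4 to 98.5), and none of these 1000 had 50 or more fragments over both libraries. Near Unigene33845 only 4.1% were higher (2.96 to 5.52), and near Unigene31320 it was 7.8% (6.21 to 9.64). Thus these 3 members had the direction of nearly all unigenes numbered beside them. Near Unigene23090, in contrast, 40.7% were higher (37.6 to 43.8), against 47.8% over all unigenes, and that member went against most of its neighbours. Unigenes beside the 3 members were short and sparse, with a median length of 240 nt and 13 fragments near Unigene44243, 282.5 nt and 23 near Unigene33845, and 277 nt and 21 near Unigene31320. Beside Unigene23090 the medians were 966 nt and 219 fragments. Among neighbours with at least 50 fragments, 34.1% of 41 were higher near Unigene33845 and 28.2% of 117 near Unigene31320. The part of the numbering in the values of these members was not tested.

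**Figure D4:**
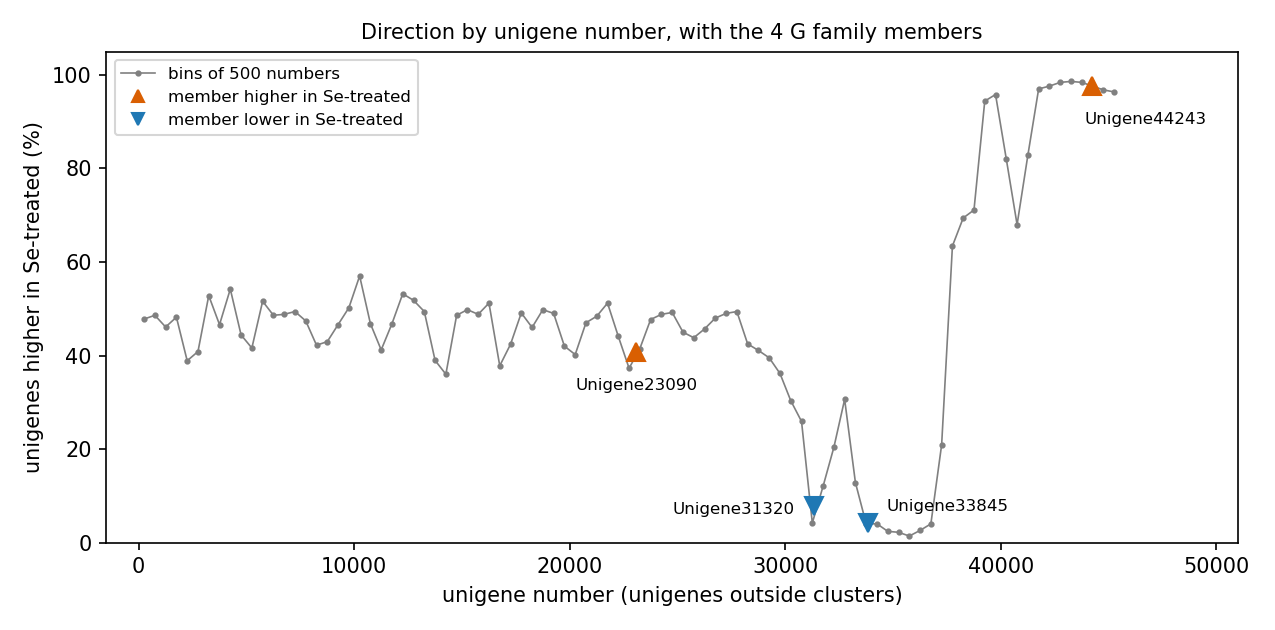
Share of unigenes that were higher in the Se-treated library (vertical axis, percent) in bins of 500 numbers along the unigene number (horizontal axis), with the 4 G family members as triangles at the share among the 500 unigenes on either side of them, pointing up where the member itself was higher and down where it was lower. Unigene44243 sits at 97.6%, Unigene31320 at 7.8% and Unigene33845 at 4.1%, and Unigene23090 at 40.7% lies in the range where directions were mixed.

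Ordered by FPKM, the control library had Unigene23090 first (9.12), followed by CL4021.Contig1 (5.54), Unigene31320 (4.41), Unigene33845 (3.78), CL7881.Contig1 (3.17) and CL3003.Contig2 (2.26). Neighbours in this order had overlapping intervals. CL3458.Contig2 (0.549) lay apart from CL3003.Contig2 above it and overlapped Unigene44243, which had none. Under selenate the order was Unigene23090 (43.4), CL7881.Contig1 (13.4), Unigene44243 (2.49), CL3458.Contig2 (2.24), CL4021.Contig1 (1.35), Unigene33845 (0.541), CL3003.Contig2 (0.481) and Unigene31320 (0.442). There Unigene23090 and CL7881.Contig1 each lay apart from the next member, and from the third place on the intervals of neighbours overlapped. Summed over members, the A family went from 7.81 to 1.83 FPKM and the C family from 3.72 to 15.7. The G family went from 17.3 to 46.9, of which Unigene23090 made up most in both libraries. These sums hold only members, which were chosen on this difference, and do not stand for the families as a whole.

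Depth differed among the members as well. The 4 lower members had 22 to 46 fragments over both libraries and 271 to 872 nt, while 3 of the 4 higher ones had 249 to 1550 fragments. The remaining higher one, Unigene44243, had 16, fewer than any lower member. Among the 43418 unigenes with fewer than 50 fragments, the range of 5 members, 16.8% differed by 2 or more on the log2 scale without regard to the FDR, and 2.39% did so and passed the FDR. Among the 11949 with 200 or more and under 1000 fragments, the range of CL3458.Contig2 and Unigene23090, both shares were 2.44%. Among the 6204 with 1000 or more, the range of CL7881.Contig1, both were 1.42%. With 1 FPKM added to both libraries, which shrinks the ratios of unigenes with a low FPKM, the log2 ratios of the members ran from 1.07 to 2.13 in size. Unigene23090 alone then still reached 2, while CL3458.Contig2 came to 1.07, CL3003.Contig2 to -1.14, Unigene33845 to -1.63 and Unigene31320 to -1.91.

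In the annotation table, 22 unigenes are named as ABC transporters. Of these, 18 were higher under selenate and 4 were lower, and the 4 lower ones are the A and G family members described above. Over all 972 named unigenes 663 (68.2%) were higher. All were chosen by the same thresholds, so these counts are no independent evidence of a direction. The 14 outside the A, C and G members were all higher, with log2 ratios from 2.01 to 4.00. Of these, 10 belong to the B family, which in other plants includes auxin transporters. Among them, CL1768.Contig1, CL1768.Contig2, CL1768.Contig3 and CL1768.Contig4 are contigs of the same cluster and can share reads. The 10 unigenes therefore need not be 10 genes. The most abundant was CL1768.Contig2, with 9713 and 38981 fragments and a log2 ratio of 2.01 (1.98 to 2.04). Another G family unigene, Unigene39739 (466 nt), was matched to a G family member 26-like protein, whose Arabidopsis namesake acts in forming the pollen wall. It had 4 and 33 fragments, which made a log2 ratio of 3.05 (1.56 to 5.00), and 93.3% of the unigenes numbered beside it were higher. Of 2 unigenes named as a multidrug resistance protein of the ABC transporter family, CL78.Contig2 (5016 nt) had 12 and 85 fragments, so that its log2 ratio was 2.83 (1.95 to 3.83), and Unigene41264 had 2 and 21, with 3.39 (1.36 to 6.53). Unigene40038, named as an ABC transporter ATP-binding protein, had 8 and 39 fragments and 2.29 (1.17 to 3.60).

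Other membrane transporters with a name went both ways, with 22 of 35 (62.9%) higher under selenate and 13 lower. Over all named unigenes 68.2% were higher, and all were chosen by the same thresholds, so nothing about transporters is read from this count. By the mean FPKM of the libraries, the highest of the higher ones were a putative zinc transporter (Unigene961, mean 29.8 FPKM, log2 ratio 2.04), a calcium-transporting ATPase (Unigene4785, 22.9 and 2.09) and an aminophospholipid ATPase (Unigene19738, 20.5 and 2.23). By the same measure, the highest of the lower ones were a polyol transporter (CL5166.Contig3, mean 118 FPKM, log2 ratio -2.13), the sugar transporter SWEET12-like (Unigene29960, 42.9 and -2.00) and the transporter MATE2 (Unigene16618, 29.5 and -2.07). No named transporter of sulfate was among them. Only unigenes past the thresholds carry a name here, so sulfate transporters with smaller differences or without a name would not be seen.

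Likeness to a member was measured as the distance of log2 FPKM over the 2 libraries, among named unigenes and for members with fragments in both. The nearest to CL7881.Contig1 was a subunit C-like unigene of a translation initiation factor (Unigene7736, 3.13 and 13.2 FPKM, distance 0.03). Nearest to Unigene23090 was an oxophytodienoate reductase (CL2340.Contig1, 8.58 and 44.6 FPKM, distance 0.10), and to CL3458.Contig2 a calcineurin subunit B (Unigene37779, 0.550 and 2.32 FPKM, distance 0.05). For CL4021.Contig1 the nearest was an F1L3.4 unigene (Unigene19002, distance 0.09), and for CL3003.Contig2 an IMP dehydrogenase-related one (CL1968.Contig1, 0.06). For Unigene33845 it was a disease resistance-like unigene (Unigene29946, 0.08), and for Unigene31320 a yippee-like one (Unigene31485, 0.11). With 2 libraries, such likeness is a description of 2 values only.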

How the data were processed

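The authors discarded low-quality reads, built unigenes with Trinity (release 20130225), TGICL (2.1) and Phrap (23.0), and placed the reads on them with SOAP (2.21). The deposited fragment counts are whole numbers, not normalized, and their sums equal the library totals that the header states. The other deposited values used are unigene lengths in nt. The stored FPKM of 1 or more has lost its decimal mark (59159 control and 58553 Se-treated values), so FPKM was computed again from the counts. Columns of the authors' comparison (direction, P-value and FDR) were not used. An FPKM of 0 was replaced by 0.001 in log2 ratios.

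The members were chosen with earlier results of these data known, as were the lists and the rule for the other unigenes named: contigs of the members' clusters, other ABC transporters, the 3 other transporters per direction with the highest mean FPKM, and the unigene nearest in level to each member. Names came from the study's annotation table, from which no value was taken. The FDR threshold is the one the study used, and the log2 ratio of 2 is the stricter of its settings, used for its annotation table. The FDR came from a two-sided Audic-Claverie test, which doubles the smaller tail, adjusted by Benjamini-Hochberg over 82566 unigenes, and served only as background. The test compares 2 libraries, not conditions. The script was tested on simulated data. Intervals are exact Poisson for counts and Clopper-Pearson for shares and ratios. Computations ran in Python 3.11.15 (scipy 1.17.1, pandas 2.3.3, numpy 2.4.6), and plots were drawn with matplotlib 3.10.9. Alternatives were pseudocounts, a floor of 3 fragments, scaling, filters on low counts, summing of clusters and other windows. No unigene sequence was used here.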

Additional observations from a re-analysis of the deposited data

How the results depend on the processing

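Member ratios were recomputed on the contig itself with 0.1 or 1 FPKM added or with the floor of 3 fragments. Other settings were recentring on the median of -0.03 and totals without the 10 most abundant unigenes. All 33 ratios kept their direction, but that outcome was fixed in advance. The same FPKM added to both libraries cannot change a sign, and neither could the floor. The shifts from recentring and new totals were far smaller than the log2 ratio of 2 that chose the members. With 1 FPKM added, sizes ran from 1.07 to 2.13, and 1 higher and 0 lower members still reached a log2 ratio of 2. Summing the cluster took all 4 members that lie in one below 2 in size (1.89, 0.87, -1.45 and, turned from -2.23, 0.15 for CL3003.Contig2). By the ratio alone this leaves 2 higher and 2 lower, the G family unigenes, for which nothing was summed. For whole clusters, leaving out the member turned CL7881 from 0.87 to -0.060 and moved CL4021 to -0.58. Adding 1 FPKM moved CL3003 to -0.079, CL3458 to 1.45 and CL7881 to 0.74, and summing FPKM in place of fragments moved CL3003 to -0.086. The causes of these moves were not tested. Over all unigenes at a log2 ratio of 2, 1311 were higher and 912 lower, 752 and 435 with at least 50 fragments, 402 and 249 with 1 FPKM added, and 4381 and 4107 without the FDR. At a log2 ratio of 1, dropping the FDR gave 14037 and 14230 in place of 4539 and 3838. With at least 50 fragments, 34.1% of 41 unigenes near Unigene33845 and 28.2% of 117 near Unigene31320 were higher. No paired analysis was possible because each condition has 1 library.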
